A study of Mus musculus with 4 samples.

Results

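Type IA and type IC spiral ganglion neurons of the adult mouse cochlea were compared directly, gene by gene and within each animal. The members are the cells that the authors' deposited annotation calls Type IA or Type IC: 2384 type IA and 2104 type IC cells, 4488 of the 6713 annotated cells in all. The 1625 cells called Type IB stand between them in many genes and were left out of the comparison. Per the labels, all cells came from 4 wild-type male mice of the inbred CBA/CaJ strain at 9 weeks of age. No treatment or altered allele was involved, so each animal supplied both subtypes. The tissue was the modiolus, the bony core of the cochlea, together with neighbouring epithelium, digested with collagenase and papain and captured as single cells on the 10x Genomics platform.

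Spiral ganglion neurons carry sound information from hair cells to the cochlear nucleus of the brainstem. Type I neurons are myelinated, and each contacts a single inner hair cell through an afferent synapse that works with glutamate. They differ in spontaneous firing rate and sound threshold, and molecular subtypes among them have been described that place their endings on different sides of the inner hair cell. Type IA neurons are known for high calretinin and are generally linked to high spontaneous rates and low thresholds, and type IC neurons, known for Lypd1 and Pou4f1, to low spontaneous rates. The comparison addresses which genes separate the ends of this range.

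Mice 1 to 4 gave 427, 827, 605 and 525 type IA cells and 412, 686, 539 and 467 type IC cells. Unique molecular identifiers (UMIs, each standing for 1 captured RNA molecule) were summed over the cells of each mouse and subtype, which gave 29830361 UMIs over the 4 type IA sums and 29505582 over the 4 type IC sums. Single sums held between 4802909 and 10156321 UMIs for type IA and between 5362955 and 8946824 for type IC. Levels are in CPM, the UMIs of a gene scaled to a common total for every sum. The library method reads the 3' ends of transcripts, so CPM is not divided by gene length. Where a gene is called the most abundant of its list, the ranking is by CPM only. Levels of different genes are otherwise not compared. Log2 differences are type IA minus type IC, fitted with the mouse as a pairing term. A gene was called when its Benjamini-Hochberg adjusted p in edgeR's quasi-likelihood test was under 0.05 over all 13113 genes tested. The sources used here do not say how cells were put into subtypes. Because the compared UMIs belong to the labelled cells themselves, a gene that separates the subtypes is no independent finding. The tests describe recurrence over the 4 mice, judged mostly against a spread pooled over genes (3 residual degrees of freedom, median prior 100.4). A small adjusted p therefore does not show that a single gene differed evenly over the mice. In sums of this kind, a lower value in every cell and fewer cells with the transcript cannot be told apart, except where shares of cells are given.

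The labels were checked against markers. Calb2, Rxrg, Pcdh20 and B3gat1, taken here as type IA markers, summed to 9476 to 11219 CPM in type IA and 603 to 866 CPM in type IC. Lypd1, Grm8, Pou4f1 and Runx1, taken as type IC markers, summed to 108 to 161 CPM in type IA and 2960.1 to 3490.3 CPM in type IC. Both lists were written with results on these data known, so their direction is a description. The type IB markers Calb1, Ttn and Lrrc52 were low in both subtypes, at a summed 8.97 to 12.9 CPM in type IA and 14.0 to 18.7 CPM in type IC. Of these, Calb1 was called lower in type IA (log2 difference -0.70), a call lost with thinned cells. Defining transcripts of hair cells were close to absent, since 5 of 6 (Otof, Myo7a, Myo15, Slc17a8 and Ocm) averaged under 1 CPM in both subtypes. Transcripts of myelinating Schwann cells were present in both, at a summed 2785 to 3054 CPM in type IA and 3035 to 3465 CPM in type IC, and 2 of the 6 listed were called lower in type IA. Satellite glia transcripts summed to 1385 to 1728 CPM in type IA and 1478 to 1755 CPM in type IC, with 1 of 6 called higher and 2 lower (Apoe and Sparc). The Apoe call was lost without mouse 1 or 3, without pairing by mouse and with labels rebuilt from split counts. Red blood cell transcripts ranged from 366 to 1665 CPM in type IA and from 388 to 1833 CPM in type IC. Of the 4 listed, 1 was called higher in type IA (log2 difference 0.23), so transcripts foreign to neurons can pass the test at small differences. Macrophage, fibroblast and endothelial markers summed to under 110 CPM in every sum, and 1 of 4 fibroblast genes was called lower in type IA (-0.76). The part of all these transcripts in the results was not tested. Across the 4 libraries, 11 cell barcodes were shared by cells of the compared subtypes.

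Promoters are shown for 4 genes whose own transcripts mark the comparison, with the matches to binding motifs of factors that differed between the subtypes. Rxrg encodes a retinoid X receptor, and its half-site, AGGTCA, is present in a promoter of Rxrg itself and in that of B3gat1. Runx1 encodes a runt-domain factor, and TGTGGT (or ACCACA on the other strand) occurs in a promoter of Runx1. Pou4f1 encodes a POU-homeodomain factor, and ATNATTAAT occurs in a promoter of Slc17a6. Only promoters that hold a match are printed. Another listed promoter of each of Rxrg, Runx1 and Slc17a6 held none of these motifs. Sequences are RefSeq's on GRCm38.p6, 300 bases around an annotated start, read 5' to 3' along the gene's strand, with the match on either strand in capitals. They lie at chr1:167618015-167618314 (Rxrg, plus strand), chr9:26751312-26751611 (B3gat1, plus strand), chr16:92826025-92826324 (Runx1, minus strand) and chr7:51624387-51624686 (Slc17a6, plus strand). Those of Rxrg, B3gat1 and Slc17a6 lie inside the gene, downstream of its outermost annotated start.
Rxrg: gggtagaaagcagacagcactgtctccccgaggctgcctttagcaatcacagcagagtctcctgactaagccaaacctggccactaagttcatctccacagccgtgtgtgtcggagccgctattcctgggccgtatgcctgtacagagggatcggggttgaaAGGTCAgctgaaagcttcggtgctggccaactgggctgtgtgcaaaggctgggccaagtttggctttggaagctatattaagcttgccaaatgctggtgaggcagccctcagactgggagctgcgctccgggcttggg
B3gat1: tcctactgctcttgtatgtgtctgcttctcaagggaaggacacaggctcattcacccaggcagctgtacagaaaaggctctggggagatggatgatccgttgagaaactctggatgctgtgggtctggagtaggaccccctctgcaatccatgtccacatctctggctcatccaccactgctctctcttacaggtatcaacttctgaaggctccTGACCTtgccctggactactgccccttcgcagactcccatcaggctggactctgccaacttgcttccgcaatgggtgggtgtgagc
Runx1: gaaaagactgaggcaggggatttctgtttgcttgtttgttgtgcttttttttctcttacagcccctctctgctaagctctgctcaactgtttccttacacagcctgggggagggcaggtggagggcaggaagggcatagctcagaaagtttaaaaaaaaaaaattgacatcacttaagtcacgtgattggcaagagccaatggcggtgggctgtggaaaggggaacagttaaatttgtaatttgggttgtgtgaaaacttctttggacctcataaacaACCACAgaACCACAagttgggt
Slc17a6: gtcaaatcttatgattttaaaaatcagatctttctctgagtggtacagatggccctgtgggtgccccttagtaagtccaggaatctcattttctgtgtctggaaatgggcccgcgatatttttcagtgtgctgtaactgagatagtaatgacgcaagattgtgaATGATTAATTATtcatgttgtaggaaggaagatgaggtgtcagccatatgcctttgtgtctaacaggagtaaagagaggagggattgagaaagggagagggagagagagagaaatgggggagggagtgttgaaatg
The Runx1 promoter holds 2 runt matches separated by a pair of bases, and the capitals in Slc17a6 span 2 overlapping matches on opposite strands. Among promoters of genes called and at least 2-fold higher in type IA, 17.0% held the runt core, 14.2% the half-site and 0.472% the POU core (36, 30 and 1 of 212). Among those at least 2-fold lower, the shares were 9.74%, 10.6% and 1.43% (34, 37 and 5 of 349). Over the 12686 promoters of all tested genes they were 12.1%, 12.2% and 0.394%, and over all 32851 mouse promoters of this length 16.8%, 16.3% and 0.989%. No test of these shares was made. A match is a description of the letters, and 3' reads do not tell which start is used. A promoter of Lypd1 held 1 runt match, a promoter of Grm8 held 1 half-site match, and no promoter of Pou4f1 in the table held any of the 3 motifs. Calb2 has no entry in the promoter table.

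Of the 13113 genes tested, 4837 (36.9%) were called. Of these, 2407 (18.4% of those tested) were higher and 2430 (18.5%) lower in type IA. Most of the calls were small, with a median absolute difference of 0.33 on the log2 scale and 75.5% of calls under 1.5-fold. Only 556 genes (4.24%) were called and at least 2-fold apart, 229 (1.75%) higher and 327 (2.49%) lower in type IA. At 8-fold or more, 26 genes were higher and 48 lower in type IA, 0.564% of those tested together. In 3453 genes (26.3%) the 4 type IA values did not overlap the 4 type IC values, with type IA above in 1573 (12%) and type IC above in 1880 (14.3%). The direction was the same in every mouse for 4467 called genes (34.1% of those tested). The count of calls depends on the test, with 2627 calls by DESeq2 and 3178 without pairing by mouse. Type IB, which took no part in the fit, averaged between the other subtypes in 484 of the 556 genes at least 2-fold apart (87.1%), nearer to type IC in 274 and nearer to type IA in 210. It lay above both in 31 and below both in 41.

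**Figure D1:**
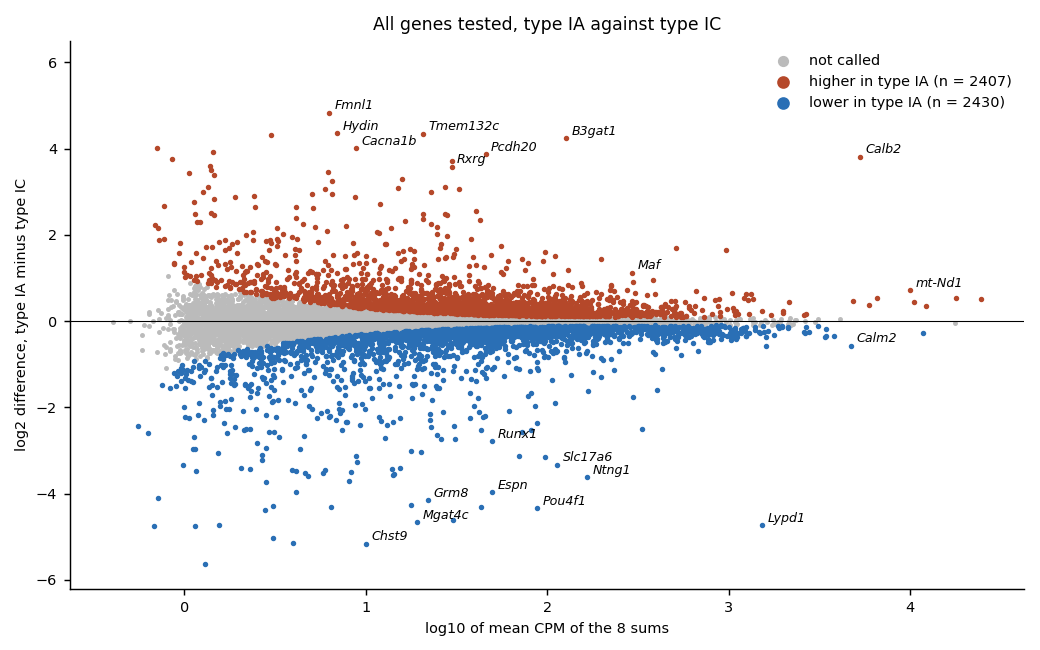
Each point is 1 of 13113 genes tested. The horizontal axis is the log10 of its mean CPM over the 8 sums and the vertical axis its log2 difference, type IA minus type IC. Red points were called higher in type IA (2407), blue points lower (2430), and grey points were not called. Calb2 and Lypd1 combine a high level with a difference of 3.80 and -4.74, and most called genes lie close to 0.

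Calb2, which encodes the calcium-binding protein calretinin, showed the clearest excess in type IA among abundant transcripts. The gene lies on chromosome 8 (110137502 to 110168210, minus strand, GRCm38). It was measured at 10315, 9262, 10826 and 9059.5 CPM in type IA of mice 1 to 4, against 782, 669.9, 842 and 583 CPM in type IC. All type IA values stood above all type IC values, with a ratio of means of 13.7 and a log2 difference of 3.80 (SE 0.05). Type IB averaged 2458 CPM. Lypd1, which encodes a small protein of the Ly6 family known as a modulator of nicotinic receptors, was the counterpart. It lies on chromosome 1 (125867622 to 125913101, minus strand) and was measured at 116, 98.3, 138 and 86.2 CPM in type IA, against 3189.7, 2941, 3028 and 2654 CPM in type IC. That is a log2 difference of -4.74 (SE 0.05), 26.9-fold lower in type IA, and type IB at 200.1 CPM lay near the type IA level.

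Single cells were compared at an equal depth of 4744 UMIs, which left out 272 type IA and 176 type IC cells. A median type IA cell then held 45 Calb2 UMIs (percentiles 10 to 90: 25 to 67), and a median type IC cell 3 (1 to 6). At least 1 Lypd1 UMI was found in 34.3% ± 5.51 of type IA cells and 98.8% ± 0.487 of type IC cells (SD, n = 4 mice). The share in type II neurons at the same depth was 43.7% (38 of 87 cells), which the type IA share did not exceed. Whether type II neurons lack the transcript was not tested. The type IA share is therefore read neither as expression nor as its absence. Before thinning, the median cell held 12400.5 UMIs in type IA, 14403 UMIs in type IC and 10862 UMIs in type II. Without thinning, the Lypd1 shares were 63.1% in type IA and 98.6% in type IC. Pou4f1 was found in 2.86% of type IA and 51.8% of type IC cells (type II 11.5%). B3gat1 was found in 67.5% of type IA and 5.97% of type IC cells (type II 14.9%). Pcdh20 was found in 34.5% of type IA and 2.36% of type IC cells (type II 10.3%). Rxrg was found in 21.8% of type IA and 2.31% of type IC cells, and its share in type II, 14.9%, had an exact 95% binomial interval of 8.20 to 24.2% that covers the type IA share. Unthinned, the shares in type IA and then type IC were 7.60% and 80.2% for Pou4f1, 59.1% and 7.42% for Pcdh20, and 45.4% and 6.38% for Rxrg. Each of these differences had the same sign in all 4 mice, which gives p = 0.13 in the exact two-sided sign-flip permutation test, the smallest p that 4 pairs allow.

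**Figure D2:**
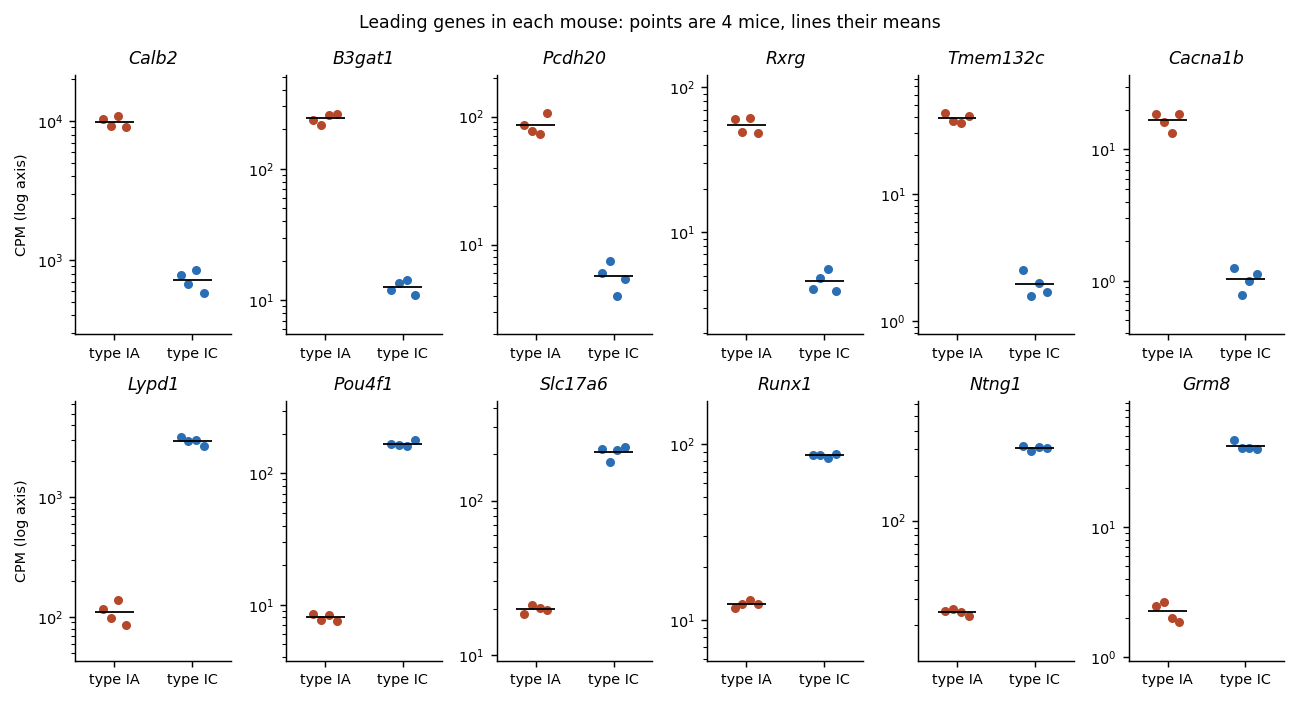
CPM of 12 genes in each of 4 mice, on log axes, with type IA left of type IC in each panel. Points are mice and lines are means. The upper row shows genes higher in type IA and the lower row genes lower in type IA, and in all 12 panels the 4 points of each subtype stand clear of the other 4.

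The other genes with the largest excess in type IA ranged from structural proteins to enzymes. B3gat1 encodes the glucuronyltransferase that makes the HNK-1 carbohydrate epitope of neural cells (chromosome 9, 26733728 to 26763101, plus strand). It was measured at 234, 216, 259 and 261 CPM in type IA, against 12.03, 13.5, 14.3 and 11.001 CPM in type IC (log2 difference 4.24, SE 0.06). Pcdh20, a protocadherin (chromosome 14, 88464743 to 88471396, minus strand), was measured at 86.2, 77.3, 73.0 and 106 CPM in type IA, against 6.01, 7.49, 3.98 and 5.41 CPM in type IC. No value overlapped in either gene. Tmem132c, a transmembrane protein gene, averaged 39.3 ± 3.35 CPM in type IA and 1.94 ± 0.426 CPM in type IC (SD, n = 4 each). Fmnl1, a formin that assembles actin filaments, had 351 UMIs in type IA and 12 in type IC, and its log2 difference of 4.83 (SE 0.25) was the highest of all tested genes. Hydin (log2 difference 4.35), Mapk4 (3.45), an atypical MAP kinase, and Ephx4 (3.29), an epoxide hydrolase relative, also met the rule. Naip5 also met the rule at 4.30, but it shares nearly identical sequence with neighbouring Naip genes and its count is uncertain.

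Among the genes lowest in type IA, several were close to the limit of detection there. Chst9, a sulfotransferase of N-acetylgalactosamine, was measured at 0.434, 0.591, 0.377 and 0.625 CPM in type IA, against 20.1, 14.4, 21.1 and 22.003 CPM in type IC (log2 difference -5.16, SE 0.21). Mgat4c, a gene of the N-acetylglucosaminyltransferase family, averaged 1.46 ± 0.423 CPM in type IA and 37.0 ± 2.00 CPM in type IC. Hmcn1 encodes hemicentin, a giant extracellular matrix protein, and averaged 2.19 ± 0.866 CPM in type IA and 58.0 ± 6.15 CPM in type IC. Ccdc109b, now named Mcub, encodes a subunit that dampens the mitochondrial calcium uniporter. It was measured at 4.20, 3.25, 4.397 and 5.41 CPM in type IA, against 76.2, 93.1, 77.9 and 80.7 CPM in type IC, while type IB averaged 5.78 CPM. Mcu, the pore of that uniporter, ran the other way at a smaller size, with 22.007 CPM in type IA and 17.7 CPM in type IC (log2 difference 0.33). Its call was lost by DESeq2 (adjusted p = 0.10) and with thinned cells (edgeR adjusted p = 0.19), and it was named after its values were seen. Espn encodes the actin bundler espin, best known from hair cell stereocilia, and averaged 5.96 ± 1.29 CPM in type IA and 93.8 ± 6.64 CPM in type IC. Hair cell markers summed to 4.20 to 8.74 CPM in type IA and 6.59 to 10.3 CPM in type IC. Khdrbs2 (log2 difference -4.27), an RNA-binding splicing regulator, Diras2 (-4.37), a small Ras-like GTPase, Glis1 (-4.32), a zinc finger factor, and Ptchd4 (-4.29) completed the rule's list.

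Genes below were grouped by function, and each list is read against all tested genes, 18.4% higher and 18.5% lower. The lists were written with earlier results of these data known, so no list was tested as a set.

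**Figure D3:**
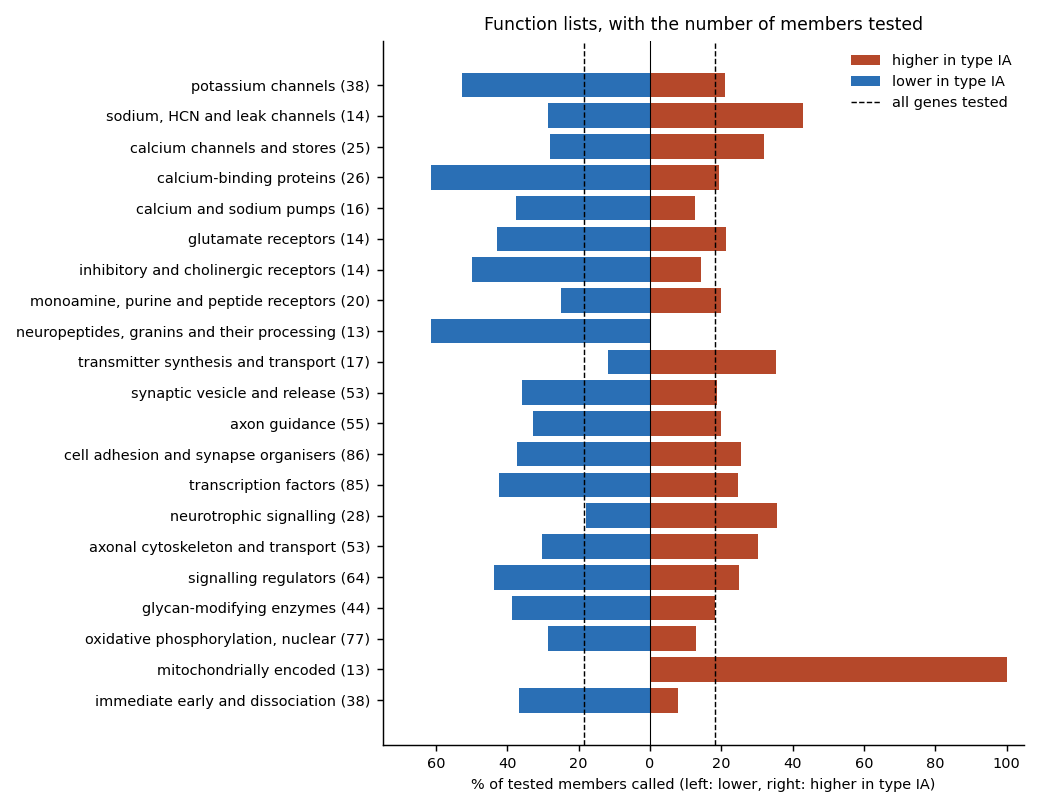
Share of tested members of each function list that were called higher in type IA (red, right of 0) or lower (blue, left of 0), with the number tested in brackets. Dashed lines mark the shares over all genes tested, 18.4% higher and 18.5% lower. The mitochondrially encoded list reaches 100% higher, and the neuropeptide and calcium-binding lists each reach 61.5% lower.

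Transcription factors separated the subtypes in both directions. Of 104 listed, 85 were tested, with 21 higher and 36 lower in type IA (median log2 difference -0.17, against -0.01 over all genes tested). Pou4f1, also named Brn3a, sustains sensory neuron identity during development (chromosome 14, 104461676 to 104467999, minus strand). It was measured at 8.54, 7.68, 8.42 and 7.496 CPM in type IA, against 166, 164, 161 and 178 CPM in type IC (log2 difference -4.34, SE 0.07). The type IB mean of 30.7 CPM was nearer to type IA. Runx1 (chromosome 16, 92601466 to 92826149, minus strand) was measured at 11.7, 12.4, 12.9 and 12.3 CPM in type IA, against 87.4, 87.3, 83.6 and 88.4 CPM in type IC. Here type IB, at 81.3 CPM, was close to type IC. Neurod1, a proneural factor, averaged 0.575 CPM in type IA and 4.78 CPM in type IC. In the other direction, Rxrg (chromosome 1, 167598384 to 167639623, plus strand) was measured at 60.05, 49.0, 61.4 and 48.7 CPM in type IA, against 4.06, 4.81, 5.59 and 3.92 CPM in type IC (log2 difference 3.57, SE 0.10). Maf averaged 400.2 ± 54.1 CPM in type IA and 186 ± 12.1 CPM in type IC, and Casz1 36.3 ± 2.26 CPM in type IA and 13.4 ± 1.52 CPM in type IC. Pou4f2, a close relative of Pou4f1, ran opposite to it, with 50.8 ± 6.58 CPM in type IA and 28.9 ± 2.13 CPM in type IC. Bcl11a was lower in type IA (log2 difference -1.66). Maf, Casz1, Pou4f2 and Bcl11a were named after their values were seen.

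Ion channel genes, which set firing threshold and spike timing, differed widely. Of 38 potassium channel genes tested, 8 were higher and 20 lower in type IA (median -0.23). Kcnd2, a pore subunit of the transient A-type current, was measured at 0.723, 0.689, 0.754 and 0.625 CPM in type IA, against 6.71, 8.61, 7.95 and 10.8 CPM in type IC. Kcnip2, an accessory subunit of the same channels named after its values were seen, fell in parallel, with 18.4 ± 6.25 CPM in type IA and 64.4 ± 9.84 CPM in type IC. Kcnj9, a subunit of G-protein-gated inward rectifiers, and Kcnk3, a leak channel, had log2 differences of -3.46 and -2.29. Kcnab2, the most abundant listed accessory subunit of Kv1 channels, averaged 402 ± 16.5 CPM in type IA and 626 ± 21.6 CPM in type IC. Kcnq3, a subunit of the slow M-type channels, was higher in type IA (log2 difference 0.53) and was named after its values were seen.

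**Figure D4:**
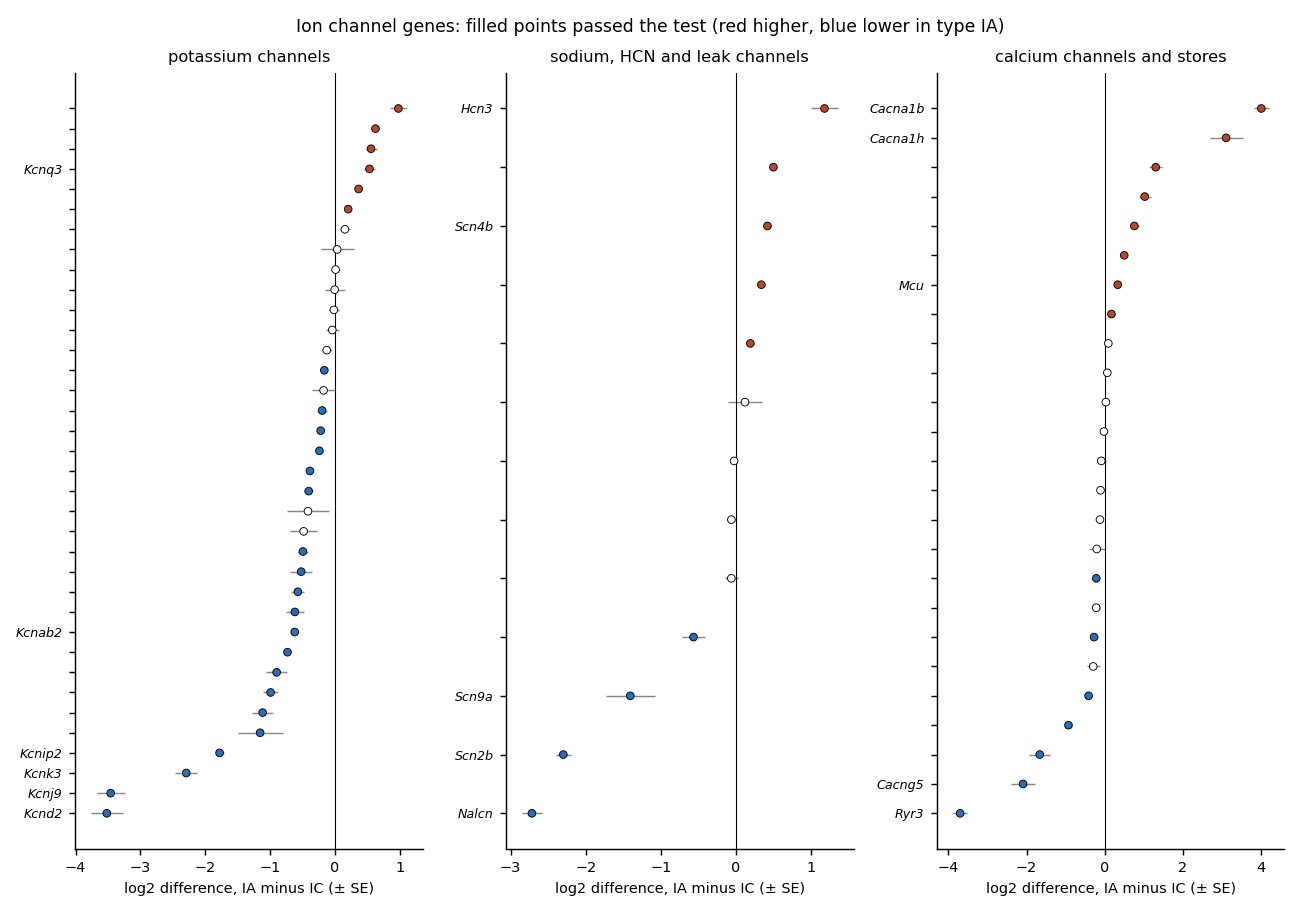
Log2 difference, type IA minus type IC, of tested genes in 3 channel lists, with bars of 1 SE; rows with a name are the genes described in the text, and a few listed genes are not drawn. Filled points were called (red higher, blue lower in type IA) and open points were not. Kcnd2 and Kcnj9 mark the low end among potassium channels at -3.52 and -3.46, and Cacna1b and Ryr3 span the calcium list from 4.00 to -3.70.

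Among 14 sodium, HCN and leak channel genes, 6 were higher and 4 lower in type IA. Nalcn, the sodium leak channel that holds resting potential (chromosome 14, 123276634 to 123627144, minus strand), was measured at 2.75, 2.86, 4.52 and 2.91 CPM in type IA, against 21.3, 22.02, 21.6 and 23.5 CPM in type IC. The accessory subunits of sodium channels ran in different directions. Scn2b averaged 7.43 ± 1.76 CPM in type IA and 37.7 ± 6.25 CPM in type IC, while Scn4b averaged 344 ± 29.5 CPM in type IA and 260 ± 13.2 CPM in type IC. Hcn3, a gene of the hyperpolarization-activated channels, was higher in type IA (log2 difference 1.18), and Scn9a lower (-1.41).

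Calcium channels and stores gave 8 higher and 7 lower of 25 tested. Cacna1b, the N-type calcium channel pore (chromosome 2, 24603887 to 24763152, minus strand), was measured at 18.5, 16.05, 13.3 and 18.5 CPM in type IA, against 1.26, 0.782, 0.994 and 1.12 CPM in type IC (log2 difference 4.00, SE 0.19). Cacna1h, a low-threshold T-type pore, was also higher in type IA but at few molecules, averaging 2.41 CPM in type IA and 0.271 CPM in type IC. Ryr3, a calcium release channel of intracellular stores, averaged 1.14 ± 0.215 CPM in type IA and 14.9 ± 0.955 CPM in type IC. Cacng5 was lower in type IA as well (-2.09), at few molecules there (0.579 to 1.25 CPM).

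Of 26 calcium-binding protein genes tested, calretinin among them, 5 were higher and 16 lower in type IA (median -0.22). Pvalb, which encodes parvalbumin, was measured at 3158, 3311, 2973 and 2699 CPM in type IA, against 3979, 4033, 3944 and 3608 CPM in type IC. Calm2, a calmodulin gene, averaged 3760.2 ± 162 CPM in type IA and 5659 ± 155 CPM in type IC (log2 difference -0.57). Both were among the 6 transcripts with the largest deficit in CPM in type IA. The copines Cpne6 and Cpne9, which bind membranes in a calcium-dependent way, had log2 differences of -1.75 and -1.67, and the neuronal sensor Ncald -2.31. Another copine, Cpne4, went against them with 112 ± 10.2 CPM in type IA and 44.0 ± 4.49 CPM in type IC, and was named after its values were seen. Calcium and sodium pumps gave 2 higher and 6 lower of 16. Their extremes were Slc24a2 (0.47), a sodium-calcium exchanger that depends on potassium, and Slc8a3 (-0.98), another exchanger.

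The genes for glutamate loading split. Slc17a7 encodes VGLUT1, the vesicular transporter that predominates in these neurons, and Slc17a6 encodes VGLUT2. Slc17a7 was measured at 504, 428, 473 and 464 CPM in type IA, against 385, 354, 402 and 375 CPM in type IC, a small excess without overlap (log2 difference 0.32, SE 0.04). Slc17a6 (chromosome 7, 51622006 to 51671119, plus strand) was measured at 18.4, 20.97, 20.2 and 19.6 CPM in type IA, against 216, 178, 213 and 222 CPM in type IC (log2 difference -3.34, SE 0.06). At equal depth Slc17a6 was found in 6.57% ± 0.786 of type IA and 62.8% ± 4.54 of type IC cells (SD, n = 4 mice), against 48.3% of type II cells. The whole list of transmitter synthesis and transport gave 6 higher and 2 lower of 17, with 1 lower when mouse 1, 3 or 4 was left out.

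Of 14 glutamate receptor genes tested, 3 were higher and 6 lower in type IA. Grm8, a presynaptic-type metabotropic receptor (chromosome 6, 27275119 to 28135178, minus strand), was measured at 2.46, 2.66, 2.01 and 1.87 CPM in type IA, against 47.0, 40.8, 40.5 and 39.9 CPM in type IC. Grik4, a kainate receptor subunit, averaged 14.9 ± 0.410 CPM in type IA and 38.6 ± 2.75 CPM in type IC. Gria2, the AMPA receptor subunit with the highest counts on the list, was not called, with 123 ± 17.4 CPM in type IA and 130.3 ± 5.51 CPM in type IC. Without mouse 4 it was called lower (log2 difference -0.13, edgeR adjusted p = 0.031). Inhibitory and cholinergic receptor genes gave 2 higher and 7 lower of 14. Besides Lypd1, its relative Lypd6 was lower in type IA (-1.57), and the nicotinic subunit Chrna4 was higher (2.83) at 2.57 CPM in type IA and 0.351 CPM in type IC. Ly6h, another gene of the Ly6 family, was also higher (1.29), at 3.62 CPM in type IA and 1.45 CPM in type IC. The Ly6h call was lost with labels rebuilt from split counts (edgeR adjusted p = 0.055). Efferent fibres from the brainstem release dopamine and acetylcholine onto these neurons. The dopamine receptor Drd1 was measured at 5.93, 7.38, 4.15 and 7.08 CPM in type IA, against 21.3, 19.2, 20.6 and 23.7 CPM in type IC. Adra2c was also lower in type IA (-1.08), while Adrb1 (1.90) and Cnr1 (0.60), the cannabinoid receptor, were higher. Monoamine, purine and peptide receptors in all gave 4 higher and 5 lower of 20.

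Neuropeptide, granin and processing genes were the list with no member higher in type IA, and 8 of 13 were lower (median -0.34). Pcsk2, the convertase that cuts prohormones in dense-core vesicles, was measured at 17.4, 14.6, 13.8 and 9.58 CPM in type IA, against 129, 114, 137 and 126 CPM in type IC (log2 difference -3.13, SE 0.07). Chgb, a granin of those vesicles, averaged 513 ± 13.3 CPM in type IA and 840.5 ± 79.4 CPM in type IC. Pcsk1n, an inhibitor of prohormone convertases, fell by 0.34 on the log2 scale. Edn2, which encodes an endothelin, was at 0.333 CPM in type IA and 3.74 CPM in type IC.

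Synaptic vesicle and release genes gave 10 higher and 19 lower of 53, with a median of -0.05. The core gene Snap25 did not pass the test, with 4122 ± 124 CPM in type IA and 4064 ± 127 CPM in type IC. Nor did Cplx1, the main complexin of these cells, at 1170.0 CPM in type IA and 1142.5 CPM in type IC. Its relative Cplx2 was lower in type IA, with 3.41 ± 0.673 CPM in type IA and 14.1 ± 2.37 CPM in type IC. Rph3a, a Rab3 effector on vesicles, was measured at 22.1, 20.97, 17.6 and 21.03 CPM in type IA, against 129, 100.3, 141 and 127 CPM in type IC. Rims3, an active-zone protein gene, had a log2 difference of -1.26. Syt7, a slow calcium sensor of release, was higher in type IA (0.84), and was named after its values were seen.

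Axon guidance genes gave 11 higher and 18 lower of 55 (median -0.19). The repulsive cue Sema3a averaged 1.80 ± 0.372 CPM in type IA and 15.8 ± 1.37 CPM in type IC. Sema4d, Robo2 and Epha3, a cue and receptors of other guidance systems, had log2 differences of -2.52, -2.23 and -2.44. Sema7a, a membrane-anchored semaphorin, was higher in type IA with 264 ± 26.7 CPM in type IA and 181 ± 16.1 CPM in type IC.

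Adhesion and synapse-organising genes gave 22 higher and 32 lower of 86, and here large differences ran both ways. Ntng1, which encodes netrin-G1, a membrane-tethered synapse organiser (chromosome 3, 109780040 to 110144011, minus strand), was measured at 24.7, 25.5, 24.5 and 23.1 CPM in type IA, against 317, 294, 311 and 308 CPM in type IC. Tenm2, a teneurin, averaged 0.471 ± 0.196 CPM in type IA and 7.74 ± 0.657 CPM in type IC. Cdh7 was counted at 0, 0.0985, 0.126 and 0 CPM in type IA, against 1.54, 1.56, 1.62 and 0.746 CPM in type IC. Beside Pcdh20, the cadherin Cdh9 averaged 58.0 ± 10.4 CPM in type IA and 6.98 ± 0.966 CPM in type IC. Nrxn3, a neurexin of the presynaptic membrane, averaged 26.8 ± 7.59 CPM in type IA and 3.24 ± 1.39 CPM in type IC. Cdh9 and Nrxn3 were named after their values were seen.

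Glycan-modifying enzymes gave 8 higher and 17 lower of 44, with log2 differences from -5.64 to 4.24. B3gat1 was the highest, and Chst9 and Mgat4c were among those lower in type IA. Galntl6 had 1 UMI in all type IA sums together and was at 3.08, 2.12, 2.61 and 2.42 CPM in type IC. Signalling regulators gave 16 higher and 28 lower of 64. Plce1, a phospholipase C, averaged 6.97 ± 1.74 CPM in type IA and 38.9 ± 3.30 CPM in type IC. A pair of protein kinase A genes named after their values were seen were lower in type IA as well, the regulatory subunit Prkar2b with 16.1 ± 1.41 CPM in type IA and 75.3 ± 0.893 CPM in type IC, and the anchoring protein Sphkap with 27.8 ± 4.70 CPM in type IA and 148 ± 25.2 CPM in type IC. Gnao1, a G-protein alpha subunit named in the same way, was higher (2.03).

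Of 28 neurotrophic signalling genes, 10 were higher and 5 lower in type IA (3 lower without mouse 1). Ngfr, the low-affinity neurotrophin receptor p75, was measured at 137, 126, 146 and 134 CPM in type IA, against 73.9, 77.5, 84.1 and 77.8 CPM in type IC. Its co-receptor Sort1 (0.73), the leukemia inhibitory factor receptor Lifr (0.75) and the growth factor Fgf1 (0.62) were also higher. Axonal cytoskeleton and transport genes gave 16 higher and 16 lower of 53. The neurofilament gene Nefl, whose protein sets axon calibre, averaged 2479.9 ± 123 CPM in type IA and 1844 ± 71.5 CPM in type IC. Gap43, a growth cone protein, averaged 1.23 ± 0.713 CPM in type IA and 4.65 ± 0.838 CPM in type IC, and Stmn3, a microtubule regulator, fell by 0.25 on the log2 scale.

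All 13 mitochondrially encoded genes were called higher in type IA, with log2 differences from 0.30 to 0.71 and a median of 0.47. In 9 of the 13, all type IA values stood above all type IC values, as in 12% of all genes tested. mt-Nd1, a subunit of respiratory complex I, was measured at 12912, 11117, 12583 and 13106 CPM in type IA, against 7473, 7468, 8026 and 7738 CPM in type IC. The other subunits of the same respiratory complexes are encoded in the nucleus. Of 77 tested, 10 were higher and 22 lower in type IA, with a median of -0.02 and a range from -0.38 (Ndufa8) to 0.28 (Uqcrb). These counts depended on single mice, with 19 higher and 17 lower without mouse 4 (median 0.019), 4 and 16 without mouse 1, and 5 and 15 without mouse 3. Without pairing by mouse, 2 were higher and 7 lower. Ndufa4, the most abundant complex gene among those lower, averaged 3338 ± 168 CPM in type IA and 4271 ± 106 CPM in type IC.

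Per cell, mitochondrially encoded genes took a median 10.3%, 9.36%, 10.5% and 11.2% of UMIs in type IA of mice 1 to 4, against 7.06%, 6.80%, 7.25% and 7.48% in type IC. The mean difference was 3.19 percentage points (SD 0.478, n = 4 mice), in the same direction in 4 of 4 mice (exact two-sided sign-flip permutation p = 0.13, the smallest possible). A high share of this kind is also used as a sign of RNA quality, and other such measures moved with it. Median UMIs per cell were 16762, 12970.0, 14303 and 8628 in type IA, against 19884, 14178.5, 16304 and 12843 in type IC, lower in type IA in 4 of 4 mice. Among cells inside the same range of UMIs, between 7815 and 17493, the shares were 9.94% in type IA and 7.33% in type IC, a difference of 2.61 points. The part of cell quality in the difference was not tested. With mitochondrially encoded genes left out of counts and totals, 4822 genes were called.

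**Figure D5:**
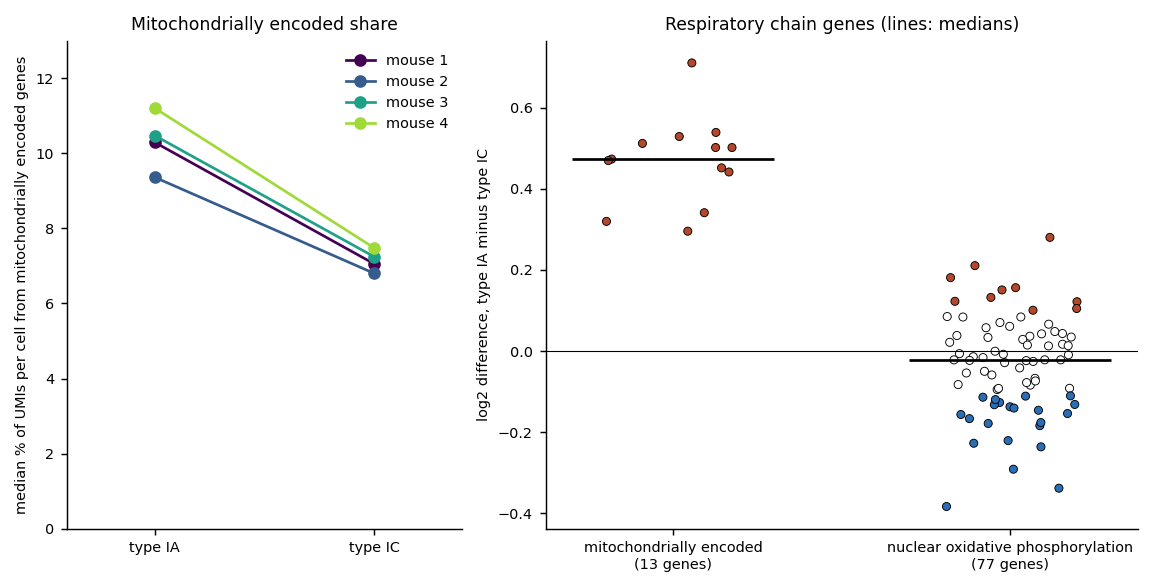
Left, median percentage of UMIs per cell from mitochondrially encoded genes, with a line for each of 4 mice joining type IA to type IC; every line runs downward. Right, log2 differences (type IA minus type IC) of 13 mitochondrially encoded and 77 nuclear respiratory chain genes, with called genes filled and lines at the medians of 0.47 and -0.02.

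Immediate early and dissociation-response genes, which tissue digestion can raise, gave 3 higher and 14 lower in type IA of 38, with a median of -0.10. DESeq2 called 2 higher and 6 lower, and the fit without pairing by mouse 1 higher and 6 lower of 37. Jun averaged 426 ± 29.0 CPM in type IA and 495 ± 23.7 CPM in type IC. Fos was near the threshold, with 538 ± 44.5 CPM in type IA and 583 ± 22.8 CPM in type IC (edgeR adjusted p = 0.038). That call was lost in 7 alternatives, among them DESeq2 (adjusted p = 0.087), the fit without pairing (0.34) and the fits without mouse 1 (0.071) or mouse 3 (0.34). Hsph1, a heat shock protein gene, fell by 0.69 on the log2 scale, and Npas4, an activity-induced factor, by 2.03. Gadd45a, from the same list, was called higher in type IA (log2 difference 0.33). The Gadd45a call was lost by DESeq2 (adjusted p = 0.052), with thinned cells, with rebuilt labels and without pairing by mouse. Among the most abundant of all transcripts, Fth1, the ferritin heavy chain, averaged 10567 ± 532 CPM in type IA and 13043 ± 360.3 CPM in type IC, and the noncoding Meg3 averaged 2944 ± 239.7 CPM in type IA and 3850.1 ± 258 CPM in type IC.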

How the data were processed

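Cells of 4 mice were profiled by 10x v2 chemistry. The authors deposited raw UMI counts per gene and cell, 1 table per mouse, and an annotation with a subtype for each type I cell. The submitters' processing notes name Cell Ranger 2.0.1, Seurat 1.4 and mm10. Those sources give no filters, doublet treatment or annotation method. A deposited normalized table was not used here.

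Raw counts were summed per mouse and subtype and fitted in R 4.3.3 with edgeR 4.0.16 (TMM, filterByExpr, quasi-likelihood test, mouse as a block); of 18143 genes, 17957 had a UMI and 13113 were tested. The fit had 3 residual degrees of freedom, a median prior of 100.4 and a biological coefficient of variation of 0.0340. SE is the estimate over the square root of F. CPM uses the plain totals, and directions in single mice use log2 CPM with a prior count of 2. Both sums of a mouse come from the same animal, and their deviations from the subtype means correlated at 0.43, 0.33, 0.48 and 0.58. In simulated counts with known differences over 13003 genes, 52% of genes changed by 0.3 (log2), 80% by 0.5 and 100% by 1 were called, and 0.0312% of unchanged genes. The changes were placed only in genes with higher counts. Every simulated gene had the same biological variation and a mouse effect equal in both sums of a mouse. These shares therefore do not give the error rate of the calls in the data.

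Members, lists and markers were chosen with earlier results of these data known. Named genes are the 12 highest and 12 lowest log2 differences among called genes with at least 100 UMIs in the higher subtype and the same direction in each mouse, skipping unnamed models; the 6 largest CPM differences each way; up to 4 called members and the 2 most abundant of each list; and subtype markers. Genes outside it are marked as named after their values were seen, and results for some genes are not reported here. Cells were thinned by drawing UMIs without replacement. Alternatives were DESeq2 1.42.0, other scaling, no low-count filter, no block, each mouse left out, all 12 type I sums, equal cell numbers, thinned cells, no mitochondrial genes, no cells with 3 or more Fabp7 UMIs, and labels rebuilt from split counts.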

Additional observations from a re-analysis of the deposited data

Results flagged for a closer look

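In each subtype, the 4 mice were screened for a value far from the other 3 among the named genes. Of 280 groups, 18 held one, of which 16 are given here, and chance alone gives about 1 in 20. In type IA, mouse 1 was lowest for Cacna1h at 1.16 CPM (the others 2.71 to 3.02) and highest for Kcnab2 at 427 CPM. Mouse 2 was lowest for mt-Atp6 at 18585 CPM and Snap25 at 3936 CPM. Mouse 3 was highest for Nalcn at 4.52 CPM (the others 2.75 to 2.91) and lowest for Espn at 4.02 CPM. It was also highest for Cckar at 0.251 CPM and Galntl6 at 0.126 CPM. With the others at 0 for both genes, any count would have been flagged. Mouse 4 was highest for Slc24a2 at 178 CPM and Cacng5 at 1.25 CPM and lowest for Stmn3 at 2000 CPM (the others 2489.6 to 2508). In type IC, mouse 1 was highest for Grm8 at 47.0 CPM, and mouse 2 was highest for Id3 at 380.3 CPM and lowest for Robo2 at 8.05 CPM. Mouse 4 was highest for Slc8a3 at 5.59 CPM and lowest for Cdh7 at 0.746 CPM. In each of these genes that was called, the call kept its direction when any 1 mouse was left out.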

How the results depend on the processing

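The count of 4837 calls moved by more than 1.5 times in 3 settings. DESeq2 called 2627 genes (1252 higher, 1375 lower), thinned cells 2878 (1392 higher, 1486 lower) and the fit without the replicate block 3178 (1658 higher, 1520 lower). Thinning lowers the number of UMIs and genes tested; the cause of the other drops was not tested. Leaving out 1 mouse gave 4035 to 4367 calls, and labels rebuilt from split counts, which kept 86.0% of type IA and 96.6% of type IC cells, gave 3409, of which 3253 were shared with the 4837. In each setting, all genes called in both fits had the same sign. Of 1928 values of named genes over the alternatives, 1860 kept their direction and their side of the threshold. Signs turned only in genes that were not called: Lrrc52 (-0.054 with equal cell numbers, -0.086 with rebuilt labels, -0.059 to 0.22 leaving out 1 mouse), Atp1b1 (-0.0093 thinned, -0.0070 with equal cells, -0.0068 to 0.019 leaving out 1 mouse), Cacnb3 (0.00076 with rebuilt labels, -0.066 to 0.012 leaving out 1 mouse) and Ttn (0.42 with rebuilt labels). The mitochondrial share difference was 2.61 points inside 1 UMI range. Without the replicate block, the difference of 3.19 points over all cells gave p = 0.0286 in an exact permutation test that ignores pairing by mouse. That is the smallest p the unpaired test can give here, reached whenever the values of the subtypes do not overlap. It therefore does not show a clearer difference than the paired test. Lists kept at least 11 of 13 mitochondrially encoded genes higher and no neuropeptide gene higher in every setting. Of 42 list counts, 11 moved by over 1.5 times with thinned cells and 7 each by DESeq2 and without the replicate block, all downward. Depth limits genes with few UMIs: Fmnl1, with 351 UMIs in type IA and 12 in type IC, had an SE of 0.25, against 0.05 for Calb2.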
